A study of Mus musculus with 2 samples.

Results

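The Wnt genes described here are 10 members of 27998 genes counted, found by their symbols in the gene list. They are 4 ligands (Wnt2, Wnt5a, Wnt10b and Wnt11) and 6 secreted antagonists (Sfrp1, Sfrp2, Sfrp4, Dkk2, Dkk3 and Wif1), and each symbol had a single entry. The cells were adipocyte precursors, flow-sorted from the subcutaneous fat of wild-type mouse pups aged 12 days. Pups had been cross-fostered to dams whose milk fat had a low n-6/n-3 ratio of polyunsaturated fatty acids, or to dams whose milk had a high ratio, with 1 sample per condition. The sources used here do not give the number of pups behind a sample, and the labels describe the cells both as cryopreserved and thawed and as fresh at capture. Messenger RNA was counted as unique molecular identifiers (UMIs) by droplet sequencing with the 10x Genomics 3′ chemistry.

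The count table holds 2 libraries, called library 1 and library 2 here by the suffix of their cell barcodes. No label ties a suffix to a milk, so library 1 and library 2 are compared as libraries and no effect of the milk is reported. Each condition had a single library, so nothing was replicated and no p-value is given. Intervals are 95% exact intervals that cover counting error only. A total of 6885 cells passed the filters, 3307 in library 1 and 3578 in library 2, with median depths of 12962 and 12112.5 UMIs per cell. The libraries shared 17 barcode sequences.

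The labelled cell type was checked against its defining genes. The precursor surface genes Pdgfra, Ly6a and Cd34 stood at 127, 2999 and 809 counts per 1000000 UMIs (CPM) in library 1, and at 132, 2830 and 854 CPM in library 2. The leukocyte gene Ptprc stood at 0.832 and 0.874 CPM, the epithelial gene Epcam at 0.0238 and 0.046 CPM, and the mature adipocyte gene Adipoq at 0.856 and 1.91 CPM in library 1 and library 2. The endothelial gene Pecam1 was at 16.7 and 14.1 CPM. In all, 6772 of the 6885 cells (98.4%) fell in precursor clusters, and 113 fell in macrophage-like, endothelial-like or erythroid-like clusters.

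Wnt proteins are secreted lipid-modified ligands that bind Frizzled receptors and their Lrp5 or Lrp6 co-receptors. When the canonical branch is engaged, beta-catenin is stabilised and acts with TCF and LEF factors in the nucleus, and in fat precursors this branch is known to hold back adipocyte differentiation. The Sfrp proteins carry a Frizzled-like domain and bind Wnt proteins outside the cell, Wif1 also binds Wnt proteins, and Dkk2 acts on the Lrp co-receptors. Dkk3 belongs to the same family by sequence, with a less settled action on the pathway.

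The precursors were divided into classes by markers that included none of the 10 members, and the Wnt pathway genes were left out of the genes used for clustering. The F3-type stromal-like class, with all 7 of its listed markers raised, held 356 cells. The committed preadipocyte-like class, with 9 of 12 listed markers raised, among them Icam1, Cd36, Lpl and Col15a1, held 1659 cells. Its listed markers Pparg, Fabp4 and Plin2 were not raised. The Dpp4-type progenitor-like class, 2 clusters of the interstitial progenitors marked by Dpp4 and Pi16, with 9 and 11 of 12 listed markers raised, held 2955 cells. Also described are a cycling cluster of 268 cells and 2 clusters that met no list's criteria and are called by their leading genes. The Cilp cluster (Cilp, C1qtnf3, Eln) held 790 cells and the Hist1h1c cluster (Hist1h1c, Hist1h2bc, Ccnb2) 66. The Cilp cluster was also led by Fos, Jun and the heat shock gene Hspa1a, whose part in its Wnt levels was not tested. It shared 3 of the 7 F3-type markers as raised genes (F3, Mgp and Cpe), but none was among its 10 leading genes. The member Sfrp4 was among those 10.

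RefSeq promoter windows on GRCm38.p6 were at hand for 6 of the 10 members, Wnt2, Wnt10b, Wnt11, Sfrp2, Dkk2 and Wif1. The stretches before the annotated first exon are shown for the ligand that differed most between committed and Dpp4-type cells (Wnt2), the most abundant antagonist (Sfrp2) and an antagonist that was high in the Cilp cluster and in committed cells (Dkk2). Each is written 5′ to 3′ on the strand of its gene, and capitals mark motif matches. The motifs searched, on both strands of the 250 bases before the RefSeq start, were the TCF/LEF core ATCAAAG, the TATA box TATAAA, the GC box GGGCGG and the CCAAT box (CCAAT).

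Wnt2 (chr6:18030586-18030695, minus strand, 110 bases): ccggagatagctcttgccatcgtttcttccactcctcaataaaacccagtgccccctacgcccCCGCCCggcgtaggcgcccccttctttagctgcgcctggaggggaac

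Sfrp2 (chr3:83766071-83766320, plus strand, 250 bases): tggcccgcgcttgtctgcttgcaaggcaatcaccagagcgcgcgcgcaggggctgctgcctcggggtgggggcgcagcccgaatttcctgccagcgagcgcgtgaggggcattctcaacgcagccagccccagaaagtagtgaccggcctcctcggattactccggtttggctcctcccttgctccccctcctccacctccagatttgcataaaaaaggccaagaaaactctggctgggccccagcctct

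Dkk2 (chr3:132085042-132085291, plus strand, 250 bases): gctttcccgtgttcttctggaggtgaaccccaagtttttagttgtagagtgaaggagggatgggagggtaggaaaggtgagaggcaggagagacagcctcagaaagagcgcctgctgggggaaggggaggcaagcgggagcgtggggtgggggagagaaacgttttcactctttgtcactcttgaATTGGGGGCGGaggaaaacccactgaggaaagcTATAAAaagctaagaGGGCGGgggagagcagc

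The Wnt2 stretch ends where GENCODE vM21 places the first exon, 140 bases before the RefSeq start, and holds a GC box on the opposite strand (CCGCCC). The Sfrp2 window holds none of the motifs as searched. The Dkk2 window holds 2 GC boxes, a CCAAT box on the opposite strand that abuts the first GC box, and a TATA box 32 to 27 bases before the start. No TCF/LEF core was found in these windows. Among the member windows, 1 of the 2 Wnt11 entries held a TCF/LEF core, 51 to 45 bases before its start. Of all 32851 windows in the table, 3.21% held the TCF/LEF core, 12.4% the TATA box, 32.7% the GC box and 33.9% the CCAAT box. A match of letters is a description of the window only.

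The genes lie on GRCm38 as follows, in the GENCODE vM21 annotation, and all 10 are protein coding. Wnt2 spans 17988940 to 18030585 on chromosome 6, Wnt5a 28504750 to 28527448 on chromosome 14, Wnt10b 98770712 to 98778150 on chromosome 15 and Wnt11 98835112 to 98855195 on chromosome 7. Sfrp1 spans 23411502 to 23449632 on chromosome 8, Sfrp2 83766321 to 83774316 on chromosome 3 and Sfrp4 19623104 to 19632994 on chromosome 13. Dkk2 spans 132085292 to 132180304 on chromosome 3, Dkk3 112116017 to 112159057 on chromosome 7 and Wif1 121033960 to 121100650 on chromosome 10. No annotated gene overlaps a member on its own strand, and on the opposite strand Gm2670 overlaps Wnt5a, Gm8398 overlaps Wnt11 and Gm26771 overlaps Sfrp2. The kit marks the strand of a molecule, and the sources used here do not say whether the authors' counting used it.

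Levels are CPM of the UMIs summed over the cells of a class, and since each molecule counts once whatever its length, they were compared between genes as they stand. The macrophage-like, endothelial-like and erythroid-like cells, named by markers from outside the lineage, were taken as background. Those 3 classes rest on 46, 49 and 18 cells, so their levels are imprecise, and all 18 erythroid-like cells were in library 1. The endothelial-like cluster also had 6 of 8 adipocyte, 6 of 8 mural and 5 of 5 erythroid markers raised. Its adipocyte markers summed to 545 CPM, against 35.9 CPM in committed cells, so it is a mixed background. The macrophage-like cluster was mixed as well, with 6 of 8 endothelial, 5 of 7 lymphocyte and 5 of 13 cycling markers raised.

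Among the named classes Wnt2 was highest in Dpp4-type cells, where it made up most of the ligand RNA. Wnt2, a ligand of the canonical branch, stood at 92.6 CPM in library 1 and 103 CPM in library 2 in F3-type cells, at 43.9 and 44.0 CPM in committed cells, and at 215 and 225 CPM in Dpp4-type cells. Each named class kept its place in both libraries, and no library of one named class overlapped another. Wnt2 was at 81.8 and 90.6 CPM in the Cilp cluster, 122 and 160 CPM in cycling cells, and 184 and 237 CPM in the Hist1h1c cluster. Among these 6 classes, the Hist1h1c cluster and the Dpp4-type class were the neighbours in order whose libraries overlapped. Wnt2 was 64.6 CPM (interval 42.9 to 93.3) in macrophage-like, 34.4 CPM (23.7 to 48.4) in endothelial-like and 19.8 CPM (5.39 to 50.7) in erythroid-like cells. The level in committed cells was thus above the endothelial-like and erythroid-like values, though inside their intervals, and below the macrophage-like value. It cannot be told apart from background here, which does not show that committed cells lack Wnt2.

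Of the 12163 Wnt2 UMIs of all precursors, 69.6% (interval 68.7 to 70.4) lay in Dpp4-type cells, which held 45.8% of all precursor UMIs. A Wnt2 UMI was seen in 53.9% of F3-type cells, 35.1% of committed cells and 87.0% of Dpp4-type cells, at median depths of 10864.5, 11311 and 13293 UMIs. The share was 37.0% in macrophage-like cells at a median depth of 6868.5 UMIs. With every cell thinned to 7470 UMIs, which left out 375 shallower cells of library 1 and 314 of library 2, the shares were 43.8%, 26.8% and 76.8% in F3-type, committed and Dpp4-type cells. The share was 33.3% in macrophage-like cells, of which thinning left out 25 of 46. The order of the named classes was thus the same at equal depth. Within the Dpp4-type class, Wnt2 was 251 CPM in the cluster led by Dact2 and Tmem100 and 209 CPM in the cluster led by Ptgs2 and Igfbp5, with intervals of 242 to 261 and 203 to 214.

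The other ligands had fewer UMIs than Wnt2 in F3-type and Dpp4-type cells, while in committed cells the intervals of Wnt5a and Wnt2 overlapped. Wnt5a, which signals mainly through the non-canonical branch, was at 70.6 and 59.7 CPM in F3-type cells, 47.6 and 47.0 CPM in committed cells, and 43.7 and 46.4 CPM in Dpp4-type cells of library 1 and library 2. Committed and Dpp4-type cells were close, both F3-type libraries lay above them, and F3-type cells lay above the Cilp cluster (60.3 and 55.9 CPM) within each library, with overlapping intervals. In endothelial-like cells it was 9.39 CPM, and in macrophage-like cells, on 13 UMIs, its interval reached 51.3 CPM. Wnt11, also mainly non-canonical, was at 5.51 and 8.83 CPM in F3-type cells and 15.9 and 16.9 CPM in Dpp4-type cells, and in committed cells at 10.9 CPM with both libraries pooled. The macrophage-like and endothelial-like cells gave 9.23 and 6.26 CPM for Wnt11, so that F3-type and committed levels are near background. Wnt10b, a ligand known for holding back adipogenesis, was at 2.80 CPM in F3-type, 2.07 CPM in committed and 7.94 CPM in Dpp4-type cells. It stayed under 10 CPM in every precursor class, on 459 UMIs in all precursors.

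**Figure D1:**
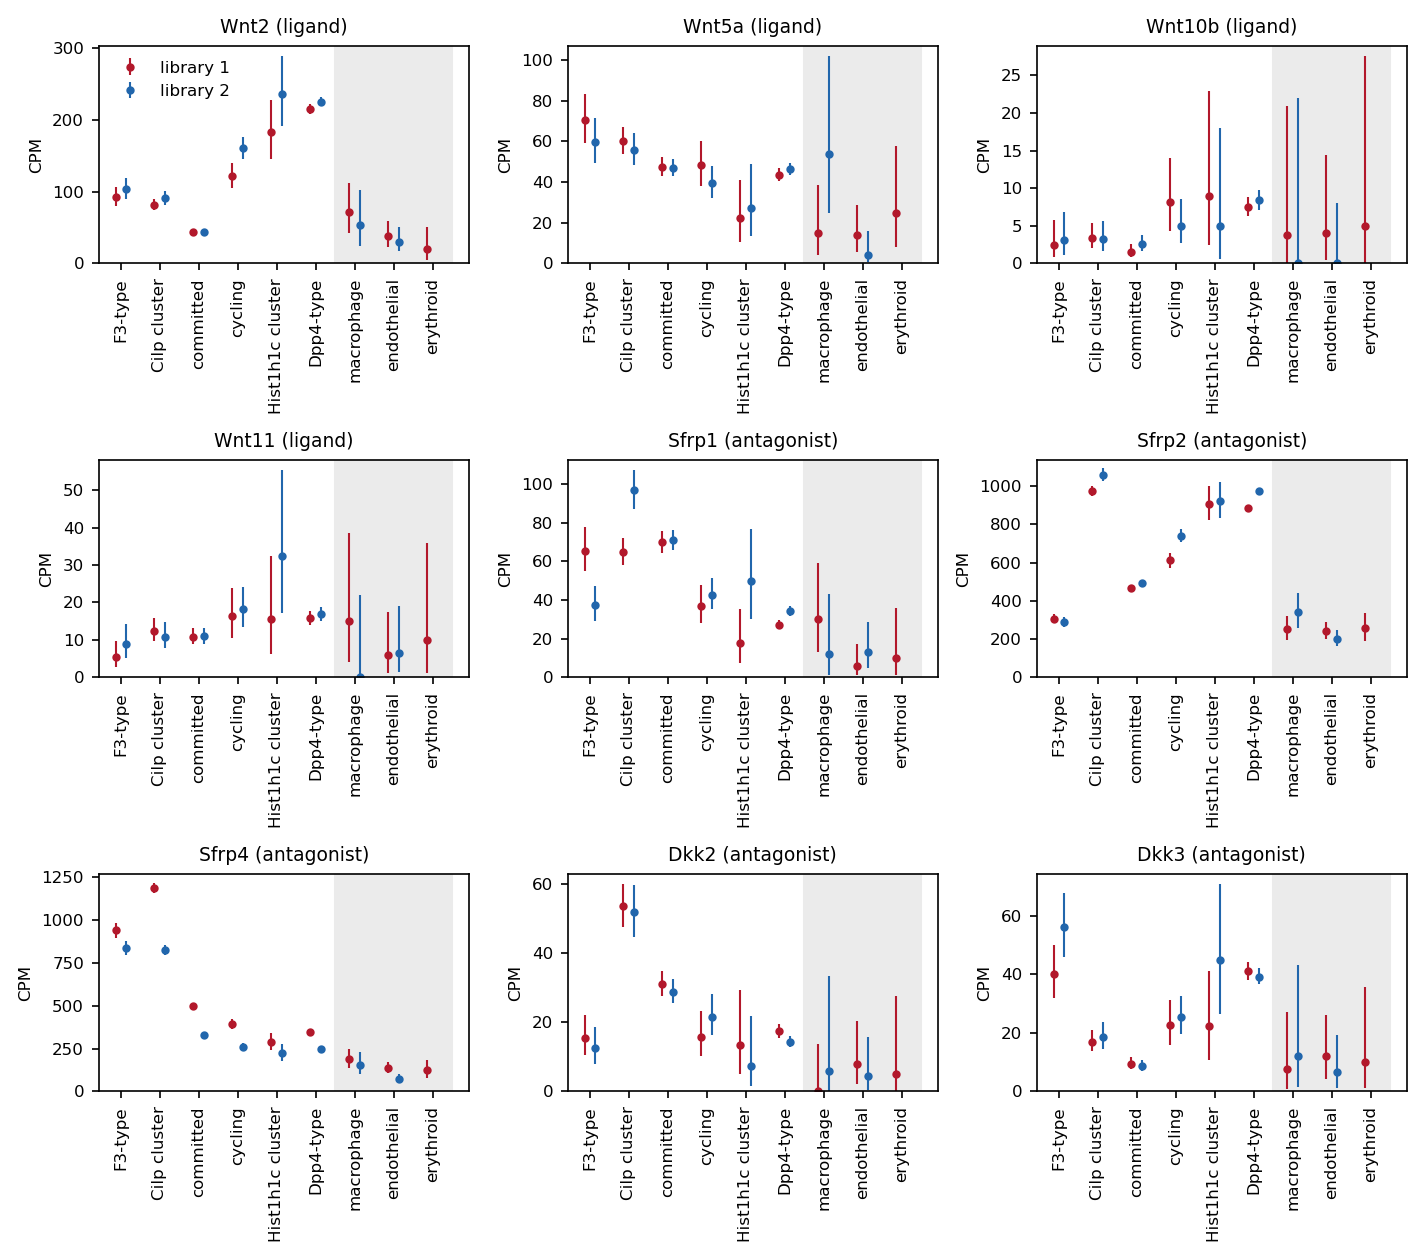
Level in CPM (linear axes from 0) of 9 members in 6 precursor classes and, shaded, 3 classes of other lineages. Points are the 2 libraries and bars are 95% exact Poisson intervals, which cover counting error only. Wnt2 in committed cells (43.9 and 44.0 CPM) sits among the shaded classes, while Sfrp4 in library 1 lies above library 2 in each precursor class shown.

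Antagonist RNA was found in each precursor class described, and Sfrp2 and Sfrp4 made up most of it. Sfrp2 was at 308 and 289 CPM in F3-type cells, 465 and 494 CPM in committed cells, and 886 and 972 CPM in Dpp4-type cells of library 1 and library 2. The Cilp cluster, at 974 and 1058 CPM, and the Hist1h1c cluster, at 907 and 922 CPM, were near the Dpp4-type level. Cycling cells had 611 and 740 CPM. Cells of other lineages had 222 to 286 CPM of Sfrp2, so the pooled F3-type level in this clustering was close to background. The F3-type cells were uneven, since 25.5% of thinned cells held 3 or more Sfrp2 UMIs and 1 cell held 48. Under other treatments, given below, the log2 fold of F3-type over Dpp4-type cells reached -0.42, so this reading depends on the clustering. The share of cells with a Sfrp2 UMI ran from 82.6% of F3-type cells to 99.5% of Dpp4-type cells, but it was also 93.9% of endothelial-like cells at a median depth of 19074 UMIs, and is not read as expression.

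Sfrp4 was highest in F3-type cells and the Cilp cluster. It was at 939 and 837 CPM in F3-type cells, 1182 and 822 CPM in the Cilp cluster, 498 and 330 CPM in committed cells, and 346 and 247 CPM in Dpp4-type cells. The order of F3-type cells and the Cilp cluster turned between the libraries. Committed cells were above Dpp4-type cells within each library, at a log2 fold of 0.53 (interval 0.47 to 0.58) in library 1 and 0.42 (0.35 to 0.48) in library 2, though with classes cut from marker scores the fold was -0.09. Cycling cells had 393 and 260 CPM and the Hist1h1c cluster 287 and 224 CPM. Cells of other lineages had 106 to 175 CPM.

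Sfrp1 was at 65.6 and 37.4 CPM in F3-type cells, 65.0 and 96.8 CPM in the Cilp cluster, 69.9 and 71.0 CPM in committed cells, and 27.3 and 34.2 CPM in Dpp4-type cells. Both committed libraries lay above both Dpp4-type libraries, and the F3-type libraries lay between them. Macrophage-like, endothelial-like and erythroid-like cells had 23.1, 9.39 and 9.90 CPM of Sfrp1.

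Of the Dkk genes, neither exceeded 60 CPM in a named class, and committed cells differed from Dpp4-type cells in opposite directions for Dkk2 and Dkk3. Dkk2 was at 15.5 and 12.5 CPM in F3-type cells, 53.6 and 51.8 CPM in the Cilp cluster, 31.1 and 28.8 CPM in committed cells, and 17.5 and 14.4 CPM in Dpp4-type cells. Libraries of the Cilp cluster and of committed cells stood apart from each other and from the other precursor classes described, and cells of other lineages had 2.31 to 6.26 CPM. Dkk3 was at 40.0 and 56.1 CPM in F3-type cells, 17.0 and 18.7 CPM in the Cilp cluster, 9.41 and 8.63 CPM in committed cells, and 41.0 and 39.2 CPM in Dpp4-type cells. Its committed level was close to that of cells of other lineages (9.23 to 9.90 CPM). Wif1 had 2 UMIs in all, 1 in each library and both in the Cilp cluster, and 0 of 38416108 UMIs in Dpp4-type cells, which, taken as 3 counts of that total, allows a level of up to 0.0781 CPM.

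Summed over the family, the ligands stood at 173 CPM in F3-type cells, 159 CPM in the Cilp cluster, 104 CPM in committed cells and 290 CPM in Dpp4-type cells. The antagonists stood at 1301, 2194, 1000 and 1312 CPM in the same classes. Antagonist RNA thus exceeded ligand RNA in each class, and the classes differed in the balance. In macrophage-like, endothelial-like and erythroid-like cells the ligands summed to 106, 52.2 and 59.4 CPM, and the antagonists to 496, 354 and 406 CPM. The ligand sum of committed cells was thus close to the macrophage-like sum, which rests on 46 ligand UMIs, and above the endothelial-like and erythroid-like sums. Wnt5a made up 47.3 CPM of it, and the sums do not show that committed cells lack ligand RNA. Ligands were 11.7% of the members' UMIs in F3-type cells (interval 10.9 to 12.6), 6.76% in the Cilp cluster (6.43 to 7.10), 9.44% in committed cells (9.04 to 9.84) and 18.1% in Dpp4-type cells (17.8 to 18.4). In cycling cells and the Hist1h1c cluster the shares were 16.3% and 17.5%. Cells of other lineages gave shares of 12.8% to 17.6% on far fewer UMIs. Wnt2 made up 42.1% of ligand UMIs in committed cells and 76.0% in Dpp4-type cells. Of the antagonist UMIs, Sfrp4 made up 68.3% in F3-type cells, 47.3% in the Cilp cluster, 41.0% in committed cells and 22.5% in Dpp4-type cells.

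**Figure D2:**
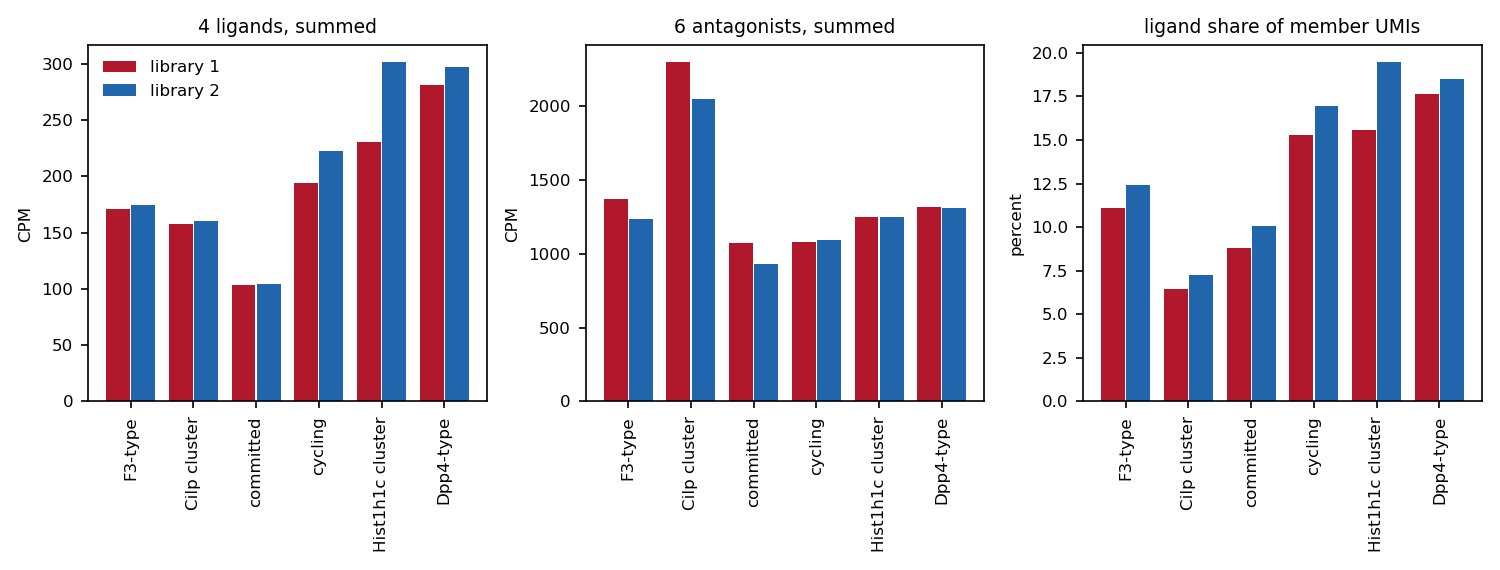
Summed CPM of the 4 ligands (left) and the 6 antagonists (middle), and the ligands' share of all member UMIs in percent (right), in 6 precursor classes. Bars are the 2 libraries, drawn from 0 and without intervals. The ligand share is 6.45% and 7.27% in the Cilp cluster and 17.6% and 18.5% in Dpp4-type cells of library 1 and library 2.

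Fold differences between classes were computed for genes with at least 10 CPM in 1 of the classes compared, and a difference of 2-fold or more was counted. For committed over Dpp4-type cells, 8.95% of 6879 genes differed by that much, 4.51% higher and 4.45% lower. Of the 8 members that reached 10 CPM there (Wnt10b and Wif1 did not), 1 was higher and 2 were lower. The log2 fold was -2.33 (interval -2.43 to -2.22) for Wnt2, -2.15 (-2.39 to -1.92) for Dkk3 and 1.19 (1.08 to 1.30) for Sfrp1. Only 43 of the 6879 genes were lower than Wnt2 in this ranking and 52 were lower than Dkk3. Sfrp2 at -0.95 (-0.99 to -0.92) and Dkk2 at 0.92 (0.75 to 1.08) were just inside 2-fold, and Dkk2 passed it in library 2 (1.01) but not in library 1 (0.83). Sfrp4 was 0.48, Wnt5a 0.07 and Wnt11 -0.59. The median was -0.26 over the 8 members and -0.12 over all genes tested. Trimmed-mean (TMM) scaling, which moved every log2 fold of this comparison by 0.12, put Dkk2 at 1.03 and past 2-fold, while 5 members passed at Leiden resolution 1, or with cells of at least 1000 genes and at most 5% mitochondrial counts.

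For F3-type over Dpp4-type cells, where 9.59% of 7057 genes differed 2-fold or more (5.58% higher and 4.01% lower), 3 of 8 members were lower and 1 was higher. Sfrp2 was lower with a log2 fold of -1.64 (interval -1.73 to -1.56), followed by Wnt11 at -1.20 (-1.80 to -0.65) and Wnt2 at -1.17 (-1.32 to -1.02). Sfrp4 was higher at 1.59 (1.54 to 1.65). Wnt11 passed 2-fold in library 1 (-1.53) but not in library 2 (-0.93), on 28 UMIs in F3-type cells. Sfrp1 was 1.26 in library 1 and 0.13 in library 2. The median was 0.04 over the 8 members and -0.04 over all genes. Over 12 other treatments of the data Sfrp4 ran from 1.44 to 2.18, past 2-fold in all. Sfrp2 ran from -1.81 to -0.42, Wnt11 from -1.53 to -0.72 and Wnt2 from -1.50 to -0.85, so that each was under 2-fold in some. For Sfrp2 these were 5 settings, with values of -0.51 without the 10% deepest cells, -0.42 and -0.51 at Leiden resolutions 1 and 0.3, -0.63 with the Wnt genes among the variable genes and -0.54 with classes cut from marker scores. At Leiden resolution 0.3 the count was 2.

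For F3-type over committed cells, 4.67% of 6815 genes differed 2-fold or more, 3.07% higher and 1.6% lower. Of the 8 members, 3 were higher, namely Dkk3 at a log2 fold of 2.41 (interval 2.10 to 2.72), Wnt2 at 1.16 (0.98 to 1.33) and Sfrp4 at 1.11 (1.06 to 1.17). Wnt2 and Dkk3 in committed cells were at the level of cells outside the lineage. Dkk2 was lower at -1.09 (-1.52 to -0.69), on 55 UMIs in F3-type and 565 in committed cells. The direction of Dkk2 turned in 5 of 12 other treatments of the data, with values up to 0.63, where the F3-type class held 414 to 605 cells. Sfrp2 was -0.69 and turned direction in 5 of the 12 as well, with values up to 1.06. Sfrp4 passed 2-fold in library 2 (1.34) but not in library 1 (0.91). Sfrp4 and Wnt2 were both 0.80 with 3000 variable genes, under 2-fold, and TMM scaling put Sfrp4 at 0.998, also just under it. The 3 comparisons between named classes share their cells pairwise, and their values are set side by side only.

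The Cilp cluster was compared with the named classes after its levels had been seen. Over Dpp4-type cells, where 4.88% of 7042 genes differed 2-fold or more (3.14% higher and 1.75% lower), 5 of 8 members did. Sfrp4 at a log2 fold of 1.82 (interval 1.78 to 1.86), Dkk2 at 1.74 (1.56 to 1.91) and Sfrp1 at 1.33 (1.19 to 1.47) were higher. Wnt2 at -1.37 (-1.48 to -1.26) and Dkk3 at -1.18 (-1.42 to -0.95) were lower, and Sfrp2 was 0.12. Within the libraries Sfrp4 was 1.77 and 1.73, both under the pooled value, Dkk2 1.62 and 1.85, and Wnt2 -1.39 and -1.31. Over committed cells, where 4.12% of 6922 genes differed (2.4% higher and 1.72% lower), Sfrp4 at 1.34 and Sfrp2 at 1.07 were higher. That count of 2 was 4 in library 2 alone, 1 under TMM scaling, which moved these folds by -0.20, and 0 with 3000 variable genes. No cluster led by Cilp was formed at Leiden resolution 1 or 0.3, without the deepest 10% of cells, or with Wnt genes among the variable genes.

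**Figure D3:**
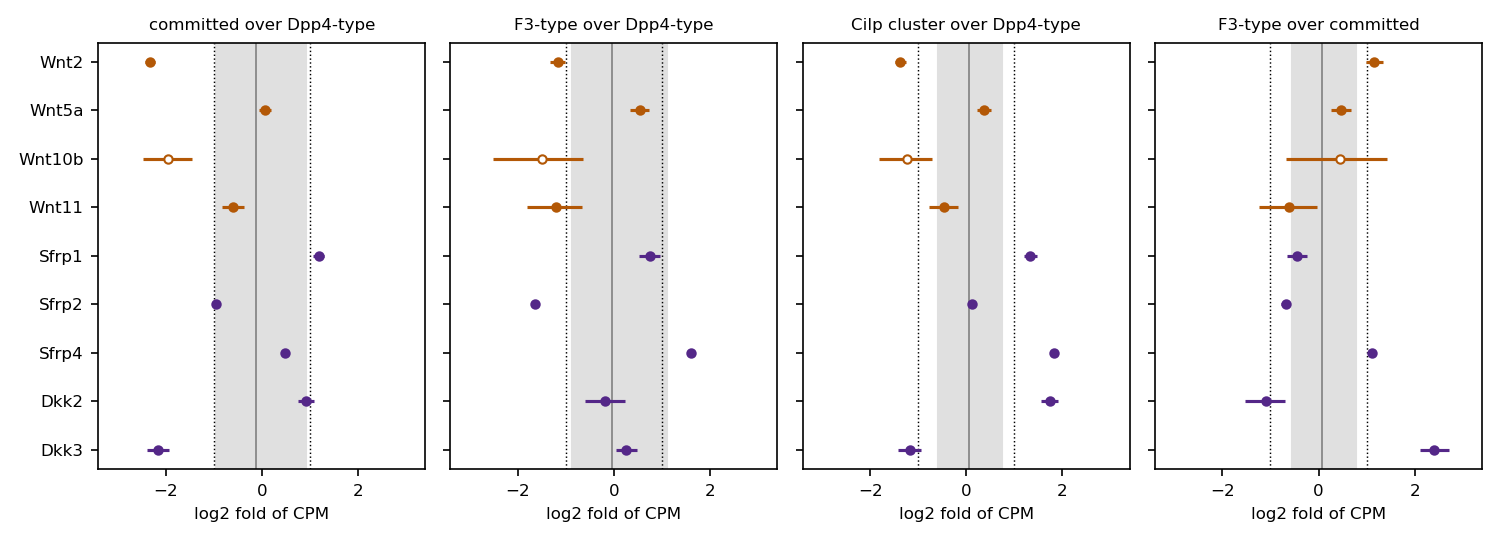
Log2 fold of CPM of 9 members in 4 comparisons of precursor classes, with both libraries pooled. Bars are 95% exact intervals (counting error only), orange marks ligands and purple antagonists, open points are under 10 CPM in both classes, the grey band holds the middle 90% of all genes tested, the grey line is their median and dotted lines mark 2-fold. Wnt2 at -2.33 and Dkk3 at -2.15 lie below the band for committed over Dpp4-type cells, and Sfrp4 lies above it for F3-type cells (1.59) and the Cilp cluster (1.82).

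The members were also followed without cluster borders. Each of the 6772 precursors was scored by its committed markers less its Dpp4-type markers, and each library was cut into 10 bins of equal cell number, from the Dpp4-type end (bin 1) to the committed end (bin 10). The score is a continuous range, and 432 cells (6.38%) lay within 0.1 SD of its median. Wnt2 was 223 and 267 CPM in bin 1, 108 and 120 CPM in bin 6, and 31.0 and 41.3 CPM in bin 10 of library 1 and library 2. Dkk3 followed the same course, with 50.7 and 47.4 CPM in bin 1 and 11.5 and 9.47 CPM in bin 10. Both reached the level of cells outside the lineage at the committed end.

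Several antagonists were highest inside the range. Sfrp2 was 828 and 908 CPM in bin 1, reached 1061 and 1171 CPM in bin 6, and was 265 and 277 CPM in bin 10, a level found in cells of other lineages. Sfrp4 was 260 and 190 CPM in bin 1, 1138 and 734 CPM in bin 7, and 217 and 139 CPM in bin 10. Its highest level thus lay between the poles in both libraries, and both ends were low. Dkk2 was highest in bin 7 of library 1 (42.3 CPM) and in bin 8 of library 2 (42.8 CPM), against 17.1 and 11.4 CPM in bin 1. Sfrp1 was 20.8 and 32.3 CPM in bin 1 and 69.9 and 68.1 CPM in bin 10, and Wnt5a kept within 39.5 to 63.3 CPM in library 1 throughout. In bin 6, 26.0% of cells were of the Cilp cluster and 26.5% Dpp4-type.

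**Figure D4:**
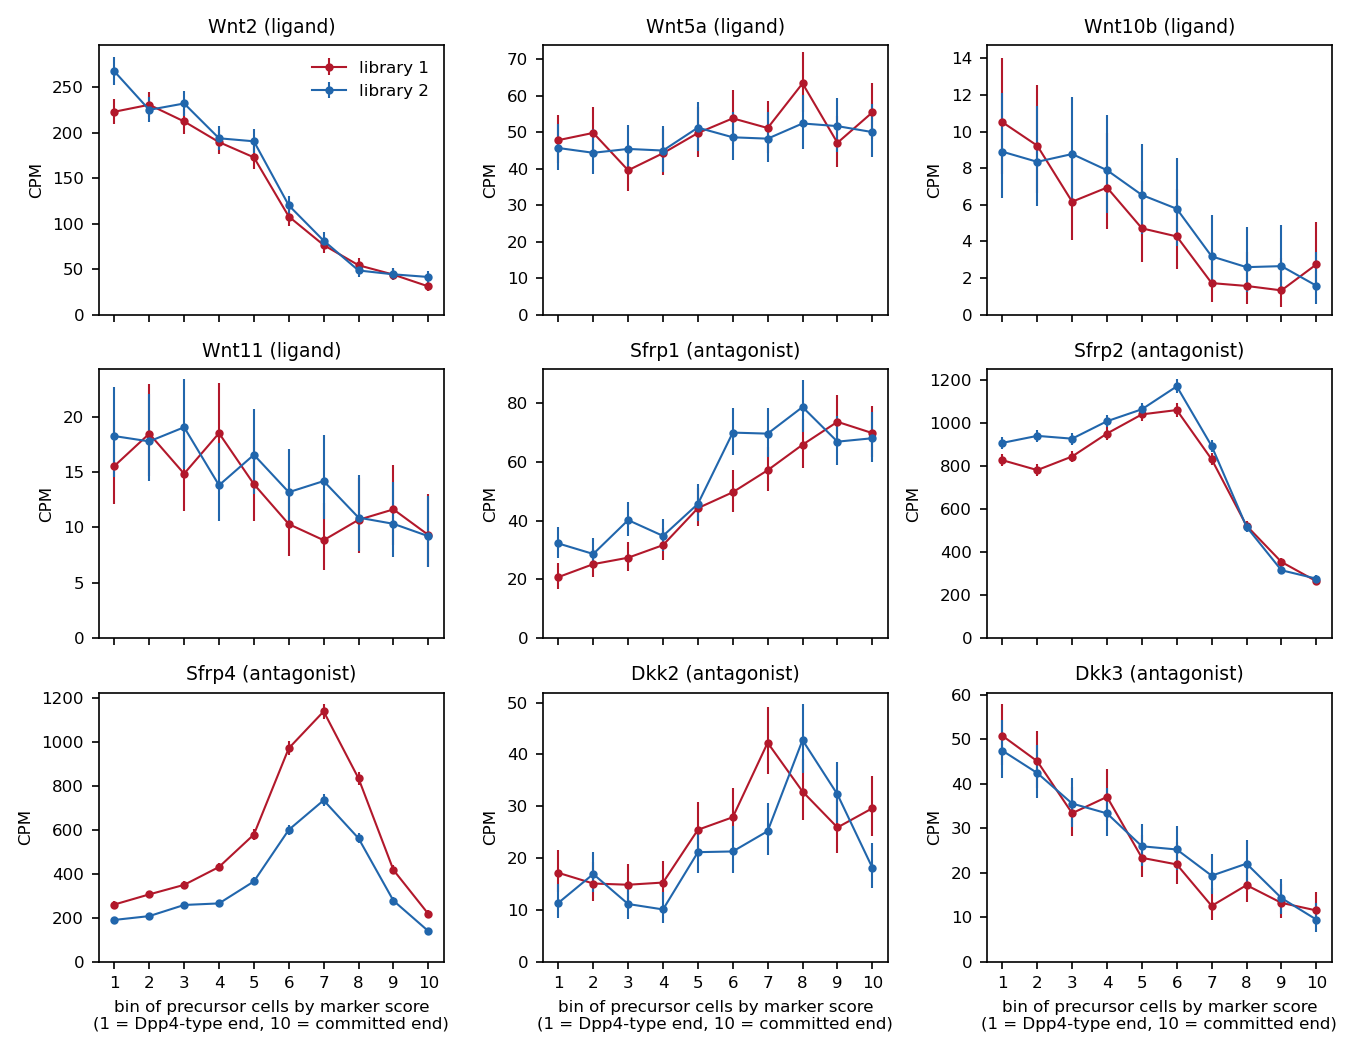
Level in CPM (linear axes from 0) of 9 members over 10 bins of the precursors ordered by marker score, from the Dpp4-type end at 1 to the committed end at 10. Points are the 2 libraries and bars are 95% exact Poisson intervals, which cover counting error only. Wnt2 runs downward to 31.0 and 41.3 CPM in bin 10, while Sfrp4 peaks at 1138 and 734 CPM in bin 7.

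UMIs of ligands and antagonists were found under the same barcodes. After thinning to 7470 UMIs, of the Dpp4-type cells with a Wnt2 UMI 98.7% in library 1 and 99.1% in library 2 also held a Sfrp2 UMI. The figures for Dpp4-type cells without a Wnt2 UMI were 99.0% and 99.4%, within the intervals of the others. A Sfrp2 UMI was also seen in 76.3% of thinned endothelial-like cells, so these shares do not show that a cell makes both. Any of the 6 antagonists was seen in 99.7% and 99.8% of Dpp4-type cells with a Wnt2 UMI.

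The spread of Sfrp4 over cells was described by the ratio of the variance to the mean. Counts with Poisson spread have a variance equal to their mean, and the ratio grows with the mean at equal relative spread, so it is not compared between genes or classes. For Sfrp4 in thinned cells it was 8.04 in committed cells at a mean of 2.94 UMIs, and 2.86 in Dpp4-type cells at a mean of 2.16 UMIs. In F3-type cells it was 9.98 at a mean of 6.22 UMIs.

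Between the libraries no member differed 2-fold in committed cells (7 reached 10 CPM) or in Dpp4-type cells (8 reached it). Of all genes, 0.278% of 6480 did so in committed cells and 0.163% of 6769 in Dpp4-type cells. None did in F3-type cells (background 1.8%), the Cilp cluster (0.325%) or cycling cells (2.17%). In the Hist1h1c cluster, where 18.8% of genes did, 3 of 8 members were lower in library 1 on 10 UMIs or fewer in that library. Sfrp4 was higher in library 1 than in library 2 in each of the 6 precursor classes described. Its log2 fold for library 1 over library 2 was 0.16 (interval 0.07 to 0.26) in F3-type cells, 0.52 (0.46 to 0.59) in the Cilp cluster, 0.59 (0.53 to 0.66) in committed cells and 0.48 (0.43 to 0.54) in Dpp4-type cells. It was 0.60 in cycling cells and 0.35 in the Hist1h1c cluster, whose interval (-0.05 to 0.76) spanned 0. In committed cells 28 of the 6480 genes had a higher fold. Cells of other lineages had the same direction, with Sfrp4 at 138 CPM in library 1 and 72.0 CPM in library 2 in endothelial-like cells and at 188 and 155 CPM in macrophage-like cells. Their part in the result was not tested. Wnt2 was -0.16 in F3-type and -0.07 in Dpp4-type cells, and its committed levels were 43.9 and 44.0 CPM. Sfrp1 went opposite ways, at 0.81 in F3-type cells and -0.33 in Dpp4-type cells. Milk, batch and animal cannot be told apart between these libraries.

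**Figure D5:**
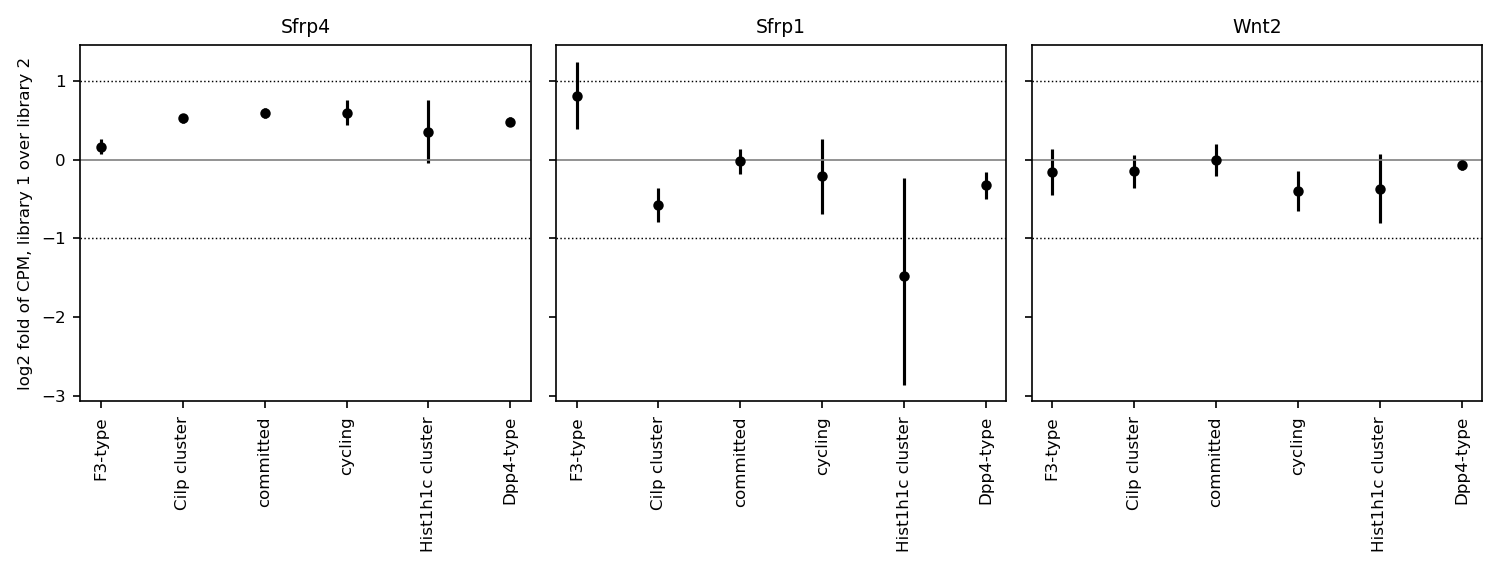
Log2 fold of CPM for library 1 over library 2 in 6 precursor classes, for Sfrp4, Sfrp1 and Wnt2. Bars are 95% exact intervals (counting error only), the grey line marks no difference and dotted lines mark 2-fold. Sfrp4 is above 0 throughout, from 0.16 to 0.60, and Sfrp1 is above 0 in F3-type cells alone (0.81).

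The wider pathway was taken from lists chosen with earlier results known. Of 15 other Wnt ligands, 6 had no UMI in the precursors and none reached 20 CPM, and Wnt5b and Wnt9a reached 10. In committed cells both were lower, Wnt5b at 4.98 CPM against 16.3 CPM in Dpp4-type cells and Wnt9a at 4.19 CPM against 12.9 CPM. Macrophage-like cells had 6.92 CPM of Wnt5b and 9.23 CPM of Wnt9a, and endothelial-like cells 3.13 CPM of each. The committed levels were thus within the range of background cells, and the Dpp4-type level of Wnt9a was not far above it. Wls, which carries Wnt proteins to the cell surface, was 99.9 CPM in F3-type, 92.8 CPM in committed and 142 CPM in Dpp4-type cells, under 2-fold apart. Of 11 other secreted antagonists, Igfbp4 alone reached 10 CPM. Igfbp4, an IGF-binding protein also known to act on Frizzled and Lrp6, was at 2231 CPM in F3-type, 651 CPM in committed and 250.2 CPM in Dpp4-type cells, beside 489 CPM in macrophage-like cells. Dkk1 and Sost had no UMI in any precursor class.

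R-spondins strengthen Wnt signalling by sparing Frizzled receptors from turnover, and their genes differed between the classes. Rspo3 was 5.35 CPM in F3-type, 4.61 CPM in committed and 33.1 CPM in Dpp4-type cells, with 34.3 and 32.0 CPM in the Dpp4-type cells of library 1 and library 2. Rspo1 was 20.6 CPM in F3-type, 1.43 CPM in committed and 0.885 CPM in Dpp4-type cells. The R-spondin receptor Lgr4 was 14.5, 12.8 and 24.0 CPM in the same classes, under 2-fold apart. Another R-spondin receptor, Lgr5, was 12.9 CPM in the Cilp cluster, 1.32 CPM in committed and 1.46 CPM in Dpp4-type cells.

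Of 18 receptors and co-receptors, 9 reached 10 CPM in committed or Dpp4-type cells, and 2 of them were 2-fold higher and 1 lower in committed cells. Of all 6879 genes tested in that comparison, 4.51% were higher and 4.45% lower. The receptor Fzd4 was 54.8 CPM in F3-type, 41.2 CPM in committed and 17.9 CPM in Dpp4-type cells. The co-receptor Lrp5 was 15.1 CPM in committed and 5.78 CPM in Dpp4-type cells, and the receptor Fzd7 6.52 and 15.1 CPM in the same classes. Fzd1, Fzd2, Lrp6, Ryk and Kremen1 also reached 20 CPM in a precursor class, and of these only Fzd2 was 2-fold apart, at 43.8 CPM in F3-type and 21.8 CPM in committed cells.

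Of 8 signal transduction genes tested for committed over Dpp4-type cells and 9 tested in each F3-type comparison, none was 2-fold apart. Of all genes tested, 8.95% were so for committed over Dpp4-type, 9.59% for F3-type over Dpp4-type and 4.67% for F3-type over committed cells. Finding none among so few genes is near those shares. Ctnnb1, which encodes beta-catenin, was 122 CPM in F3-type, 115 CPM in committed and 123 CPM in Dpp4-type cells. Csnk1a1, Gsk3a, Gsk3b, Tcf7l1, Tcf7l2 and Bcl9l also reached 20 CPM in a precursor class. Of the feedback and target genes, Ccnd1, a cyclin of the G1 phase, was 19.4 CPM in F3-type, 9.17 CPM in committed and 24.2 CPM in Dpp4-type cells. Myc was 135, 196 and 105 CPM in the same classes, Twist1 52.8, 47.5 and 67.9 CPM and Nkd1 20.6, 12.1 and 10.6 CPM, all under 2-fold apart. Wisp1 was 14.8 CPM in F3-type, 2.17 CPM in committed and 2.47 CPM in Dpp4-type cells. Axin2, a widely used readout of the canonical branch, was at most 3.54 CPM in any precursor class.

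The genes with a pattern most like each member were found by Pearson's r of log2(CPM + 5) over 16 sums, 8 precursor clusters in each library, among 6062 genes. The sums share library and depth, and r is a description only. Nearest to Wnt2 were Slc16a1 (0.97), Gcsh (0.96) and Prss23 (0.95), and nearest to Sfrp2 were Cdkn1c (0.96), St3gal2 (0.95) and Nov (0.95). For Sfrp4 they were Col12a1 (0.90), Lrp6 (0.90) and Peg3 (0.89), for Sfrp1 Hmcn2 (0.91), Adam19 (0.91) and Gsto1 (0.89), and for Dkk2 Lox (0.84), Cilp (0.82) and Pcsk5 (0.82). For Dkk3 they were Flrt2 (0.90), Col1a2 (0.88) and Clip4 (0.88), for Wnt5a Pard3b (0.92), Osbpl1a (0.90) and Tshz2 (0.88), and for Wnt11 Cd164 (0.94), Dnaja3 (0.92) and Eif3b (0.91). Among the members, r was 0.76 between Wnt2 and Dkk3, -0.71 between Wnt2 and Sfrp1 and -0.58 between Wnt2 and Sfrp4.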

How the data were processed

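The deposited matrix gives UMI counts, whole numbers, for 2 libraries. The submitters' processing notes name Cell Ranger, Seurat 3.0.1 and mm10, and the sources used here do not say whether the authors filtered the counts. The labels give 3000 sorted cells per condition, and the table holds 3321 and 3584 barcodes, with 42092816 and 43491307 counts. Barcodes with at least 500 genes and at most 10% mitochondrial counts were kept. Clustering (scanpy 1.11.5, leidenalg 0.10.2) used 2000 variable genes, 30 components, 15 neighbours and resolution 0.5, and left out 296 genes (Wnt lists, cell cycle, mitochondrial, ribosomal and histone). A cluster was named when at least 3 of a list's markers (and 33.3% of them) were raised (20 CPM or more and 1.5-fold over other cells) and at least 1 was among its 10 leading genes, with no other list having more there. These thresholds, and the Cilp cluster comparisons, were set after the data had been seen. Scrublet marked 22 cells (0.32%), which was taken as a failed call, and doublets were kept. CPM were computed here from the deposited counts summed by class, and ratios have conditional exact intervals, shares Clopper-Pearson intervals. A fit across replicates was not possible, and the 2-fold rule took its place. The calls were also run on simulated Poisson class sums without spread between cells, clusters or libraries, which checks the arithmetic only. Promoter sequences are from RefSeq (GRCm38.p6). edgeR 4.0.16 gave TMM factors only. Members and lists were chosen with earlier results of these data known. All members were named, with other Wnt pathway genes of at least 20 CPM in a class or 2-fold apart, and the 3 genes most alike for each member reaching 20 CPM. Alternatives were filters, doublets, depth, clustering, scaling, level minimum, thinning and single libraries. The levels of 1 other precursor cluster are not reported here.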

Additional observations from a re-analysis of the deposited data

Results flagged for a closer look

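The log2 fold of Sfrp1 for library 1 over library 2 was 0.81 in F3-type cells (65.6 and 37.4 CPM, on 131 and 72 UMIs) and -0.33 in Dpp4-type cells (27.3 and 34.2 CPM, on 505 and 682 UMIs). The result was marked because the libraries differed in opposite directions in these classes. The difference between the classes was not tested, since each library is a single sample.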

How the results depend on the processing

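Counts of members 2-fold apart left a range of 1.5 times the reported count only where named here. For committed over Dpp4-type cells the count of 3 became 5 with at least 1000 genes and at most 5% mitochondrial counts, and 5 at Leiden resolution 1. It was also 5 with no level minimum, where Wnt10b (-1.94) and Wif1 were added. Wif1 had 0 UMIs in both classes and was counted only because the rule lets equal values of 0 through, so it shows no difference. For F3-type over Dpp4-type cells the count of 4 became 2 at Leiden resolution 0.3. For F3-type over committed cells the count of 4 became 2 with 3000 variable genes and 2 with a level minimum of 50 CPM. For library 1 over library 2 the count of 0 became 1 with no level minimum, in Dpp4-type and in committed cells. That 1 was again Wif1, with 0 UMIs in both libraries of these classes, so no detected member differed 2-fold. The Cilp cluster comparisons and their alternatives were added after the data had been seen, and the count of 2 over committed cells became 1 without the highest doublet scores, 1 under TMM scaling, 0 with 3000 variable genes and 4 in library 2 alone. The log2 fold of Dkk2 for F3-type over committed cells (-1.09) was 0.35 without the 10% deepest cells, 0.45 and 0.60 at Leiden resolution 1 and 0.3, 0.63 with Wnt genes among the variable genes and 0.058 with classes cut from marker scores; the cause was not tested. Over the 12 alternatives, Wnt2 for committed over Dpp4-type cells ran from -2.59 to -1.96, Dkk3 from -2.26 to -1.72 and Sfrp1 from 1.01 to 1.36, and Wnt2 kept the order of the 3 named classes in all 12. Sfrp2 kept that order in 7 and Dkk2 in 6. No Cilp-led cluster formed under 4 reclusterings, nor is there one with classes cut from marker scores, so these give no value for it. No paired analysis was possible because each condition has 1 sample. Classes of few UMIs (the Hist1h1c cluster, F3-type cells, other lineages) limit the low members most.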
